A study of Mus musculus with 12 samples.

Results

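Lysosomes are the acidic compartments in which a cell breaks down its own material, and autophagy is the route that brings cytoplasm to them inside a double-membrane vesicle, the autophagosome. A proton pump, the V-ATPase, acidifies the lysosome, and the cathepsins are the proteases that work at that acidity. In the liver autophagy supplies amino acids and fatty acids during fasting, and PPARα and TFEB are transcription factors known to raise its genes. The genes described here are those of the V-ATPase (symbols beginning with Atp6v), the cathepsins, Lamp1 and Lamp2, the Atg genes, the LC3 and GABARAP genes, and Sqstm1, Becn1, Ulk1 and Tfeb. Their probe sets were picked by gene symbol, without use of their values. They number 105 probe sets of 22626 tested, which stand for 61 genes of 12393.

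The series compared 6 livers of Pctp-/- mice with 6 livers of wild-type littermates. All animals were 9-week-old males on an FVB background. All had eaten 0.2% fenofibrate by weight for 7 days from 8 weeks of age, after a standard rodent diet. Fenofibrate lowers blood lipids by activating PPARα. Pctp encodes a protein that carries phosphatidylcholine between membranes. Both groups carry the drug, no group without it was analysed here, and each difference below is therefore one between genotypes under fenofibrate. The sources used here do not say which part of Pctp is disrupted. RNA from each liver was hybridised to an Affymetrix array of its own.

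The 12 arrays had median intensities from 84.0 to 91.1 in the authors' units and correlated at 0.985 to 0.994 with each other on the log2 scale, and their number limits the precision. Pctp read 82.5 ± 12.3 in knockout livers and 2855 ± 77.2 in wild-type livers (SD, n = 6 each). The 8 measured hepatocyte markers summed to between 62058 and 64052 in knockout and between 61168 and 64286 in wild-type livers. Several measures besides genotype set arrays apart. RNA integrity was read from beta-actin, as the log2 of its 5′ over its 3′ control probe set. It was -1.18 ± 0.0839 in knockout and -1.57 ± 0.132 in wild-type livers (SD, n = 6 each), without overlap. That difference of 0.39 had a two-sided exact permutation p = 0.00216 (0.00289 after Benjamini-Hochberg adjustment over 4 control transcripts), and the groups did not overlap for Gapdh (a difference of 0.11) or pyruvate carboxylase (0.32) either, each with the same p. Transferrin receptor was at -0.02 (exact permutation p = 0.866). Beta-actin integrity and genotype cannot be told apart in these livers. The summed intensity of 15 macrophage markers ran from 5708 to 7817 in knockout livers. In wild-type livers it was 10157 and 9594 in replicates 2 and 5 and between 4199 and 5235 in the other 4. In a piece of liver, fewer cells of a type and less RNA per cell cannot be told apart.

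Intensities were compared as log2(intensity + 16), knockout minus wild type, and where a gene has several probe sets the brightest on average stands for it. A gene is said to have risen or fallen where limma's moderated test gave a Benjamini-Hochberg adjusted p under 0.05 over all 22626 probe sets. Of the 61 genes, 6 rose and 5 fell in the knockout and 50 did not pass. This is 18.0% of the genes, against 11.7% of all genes on the array, with 6.46% of all genes higher and 5.24% lower. Of the 61 genes, 12 were dim (a mean intensity under 50), and of the 49 brighter ones 10 passed, against 16.1% of all genes as bright. The median log2 difference was -0.01 over the 61 genes and 0.01 over all genes. The median absolute difference was 0.08 over the 61 and 0.10 over all genes. The groups did not overlap for 5 of the 61 genes, against 6.80% of all genes: 3 were higher, against 3.68%, and 2 lower, against 3.12%. Adjusted for the beta-actin ratio, limma called 0 of the 61 genes, and 3 had an unadjusted p under 0.05. Over all 22626 probe sets it called 2, and 1501 had an unadjusted p under 0.05. The standard errors of the 11 called genes were 0.0959 to 0.202 in that fit, against 0.0460 to 0.0912 without the adjustment. Of the 11 differences, 2 were at least as large there (Atg101 at -0.36 and Ctsf at -0.34). The other 9 were 8 smaller ones of the same sign, such as Ulk1 at -0.30 and Atp6v1c1 at 0.03, and Gabarapl2 at -0.03.

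**Figure D1:**
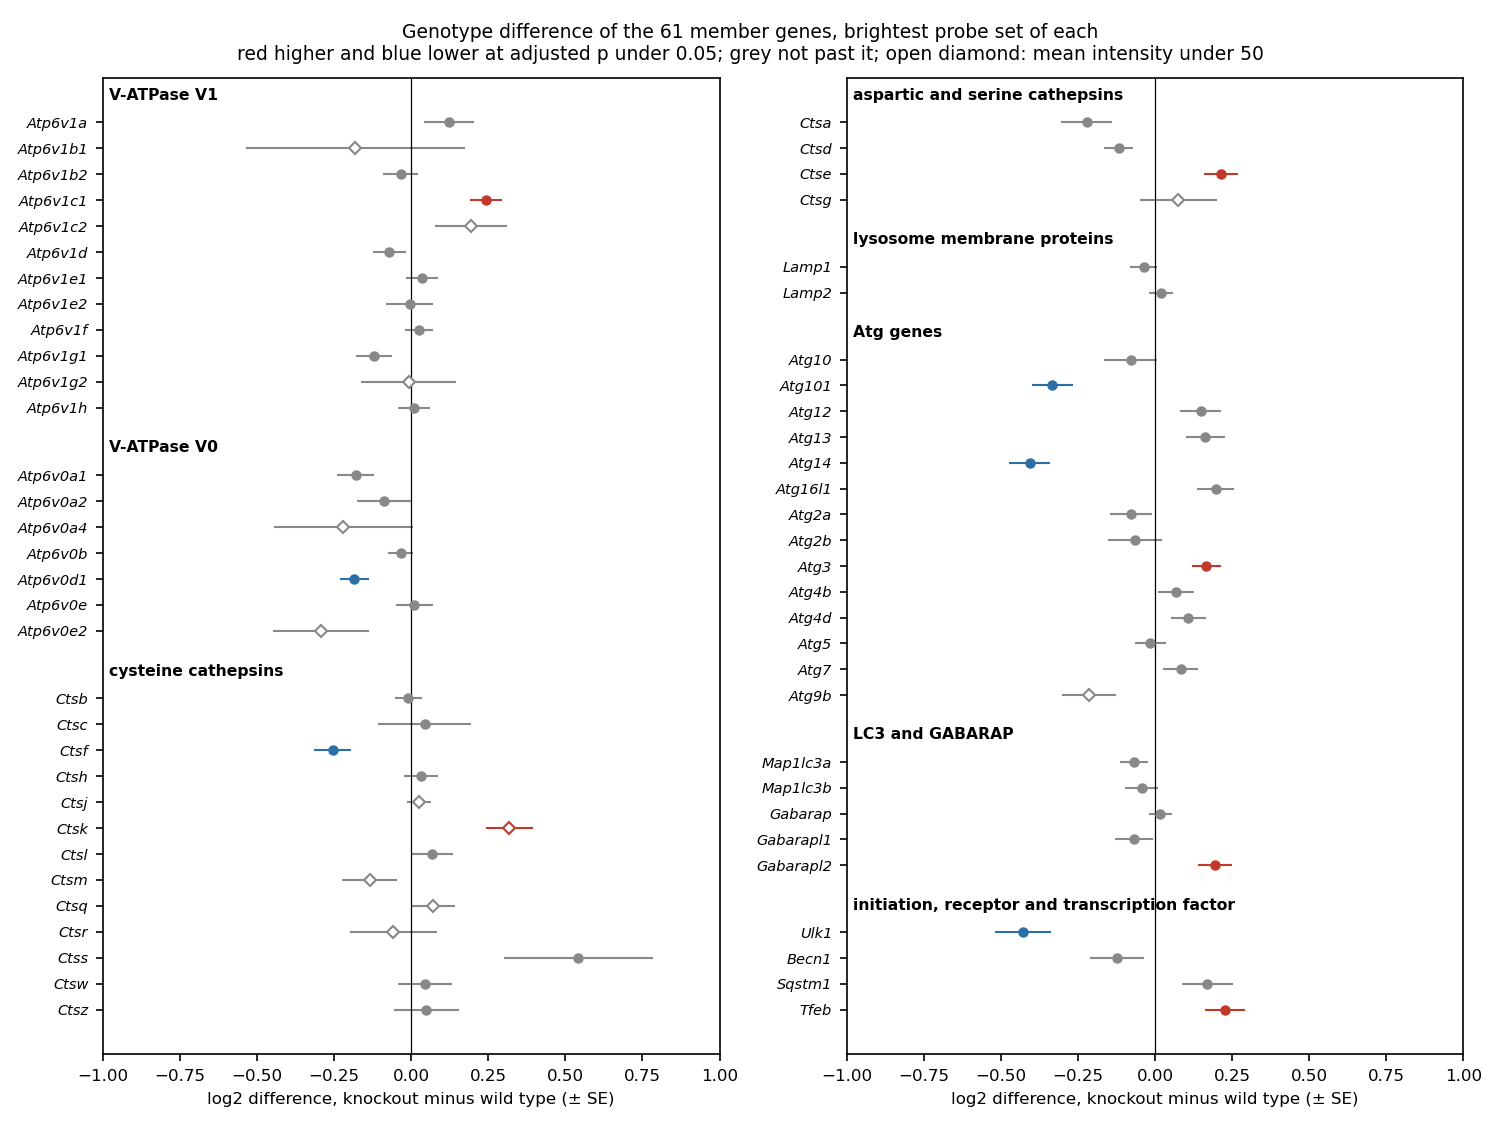
Each point is the log2 difference between 6 knockout and 6 wild-type livers for 1 gene, by its brightest probe set, with its standard error as the bar, and genes are grouped by role. The 6 red and 5 blue points passed the threshold, and they are spread over 7 of the 8 groups and lie between -0.43 and 0.32.

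Of the 61 genes, the 3 that fell most were Ulk1, Atg14 and Atg101, all of which act at the start of autophagy, where Becn1 and Atg13 did not pass. Ulk1, the protein kinase that triggers the formation of an autophagosome, fell 1.35-fold. Its intensity was lowest at 237, with a median of 278 and a maximum of 305, in knockout livers, against 321, 369 and 474 in wild-type livers. All 6 knockout values lay below all 6 wild-type values. On the log2 scale the difference was -0.43 (SE 0.0912, adjusted p = 0.0101, limma). The other Ulk1 probe set was at -0.23 and did not pass (adjusted p = 0.221). In GRCm38.p6 the gene spans chr5:110784489-110810120.

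Atg14, the subunit that directs the Beclin 1 lipid kinase complex to the site of autophagosome formation, had the smallest p of the 61 genes. Its lowest, median and highest intensities were 134, 139 and 173 in knockout livers and 191, 196 and 219 in wild-type livers, without overlap. It fell 1.33-fold, a log2 difference of -0.41 (SE 0.0656, adjusted p = 0.00274, limma). The authors' deposited table of selected probe sets lists it with a fold of -1.34 and bounds of -1.21 and -1.49. The gene spans chr14:47540893-47568434.

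Atg101, a partner of ULK1 in the initiating kinase complex, read between 99.3 and 124 with a median of 110.4 in knockout livers, and between 123 and 163 with a median of 146 in wild-type livers. All but 1 of the knockout livers lay below every wild-type liver. It fell 1.26-fold (log2 difference -0.33, SE 0.0664, adjusted p = 0.00733, limma). Atg13, another member of that complex, was at 0.16 and did not pass (adjusted p = 0.119).

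Becn1 encodes Beclin 1, a core subunit of that lipid kinase complex, and its 4 probe sets did not move together. The brightest was at -0.12 and did not pass (adjusted p = 0.411). Its name ends in _s_at, which in Affymetrix naming marks probes that can match transcripts of more than 1 gene. The probe sets that passed for Atg5, Lamp2, Sumf1 and Tmem192, described below, have the same ending. Another probe set rose 1.18-fold, with 469 ± 30.4 in knockout and 395 ± 29.1 in wild-type livers (SD, n = 6 each, adjusted p = 0.0223). Of the remaining ones a dim one was at 0.05 and the other at 0.04, and neither passed. Both of these end in _x_at, which marks probes that can match unrelated transcripts. Without wild-type replicate 6 the adjusted p of the probe set that rose was 0.0506.

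**Figure D2:**
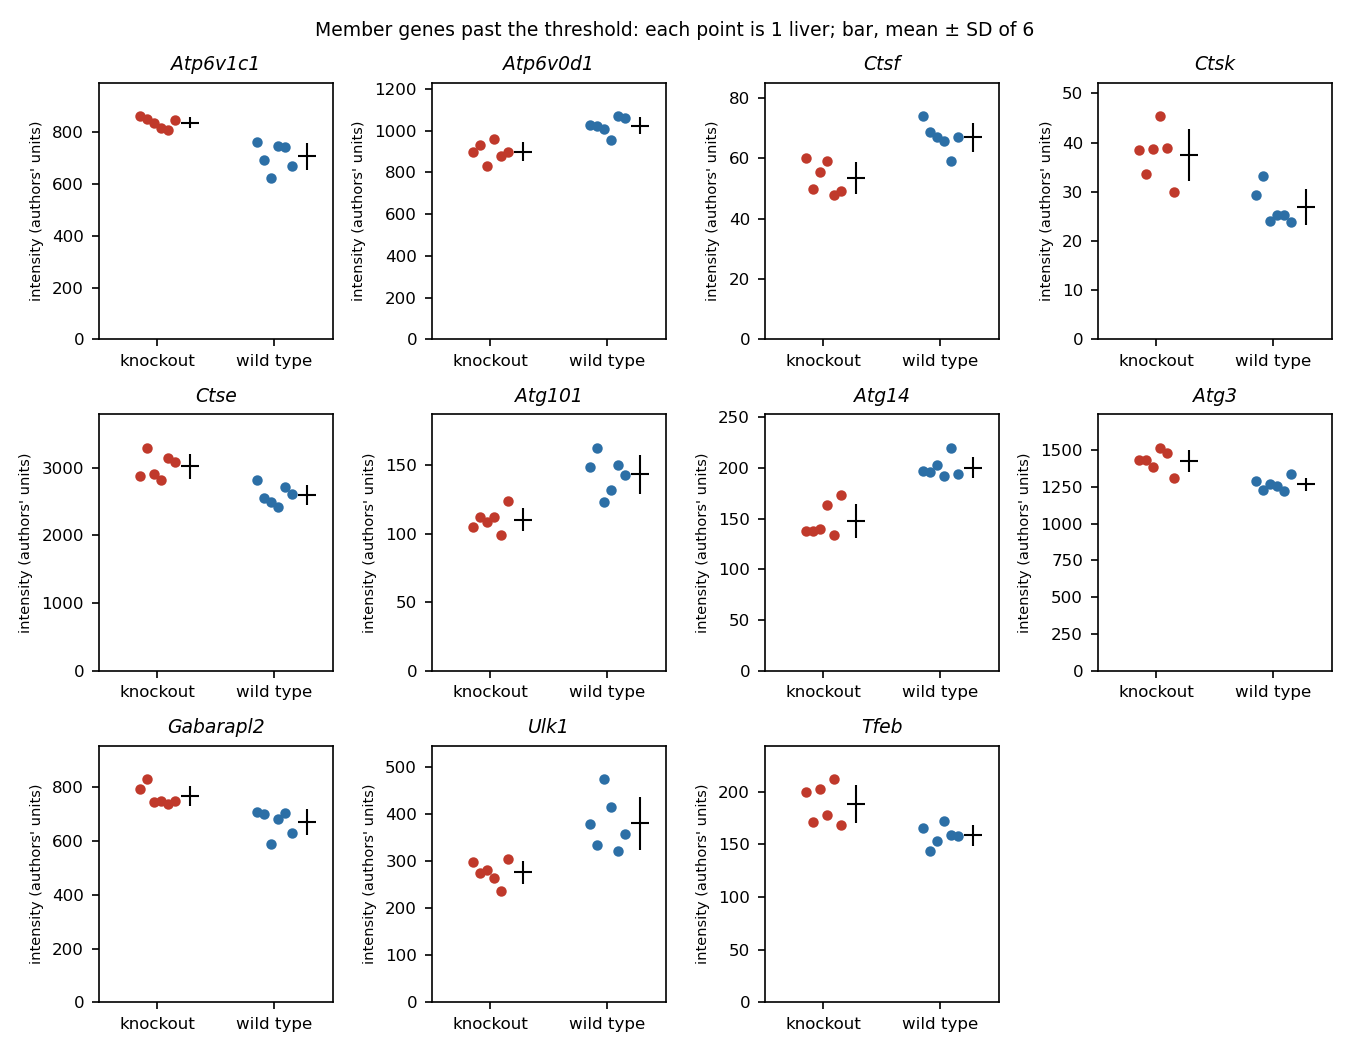
Intensity in the authors' units (vertical axis, from 0) of the 11 genes whose brightest probe set passed, with each point 1 liver and the bar the mean ± SD of 6 livers. Knockout points lie wholly above wild-type points for Atp6v1c1, Ctse and Gabarapl2 and wholly below for Atg14 and Ulk1, and the groups overlap for the other 6 genes.

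The conjugation step attaches LC3 and GABARAP proteins to the membrane lipid phosphatidylethanolamine, with ATG7 and ATG3 as the enzymes and the ATG12-ATG5-ATG16L1 complex as the guide. Of the 14 Atg genes measured, Atg3 was the 1 that rose and 2 fell, or 21.4% against 11.7% of all genes. Atg3 is a member of that step. It ran from 1310.0 to 1514 with a median of 1434 in knockout livers and from 1223 to 1337 with a median of 1262 in wild-type livers. The knockout livers stood above every wild-type liver in 5 of 6 cases. The log2 difference was 0.17 (SE 0.0460, 1.12-fold, adjusted p = 0.0335, limma). Centring each array on its median ended that call (adjusted p = 0.110). So did leaving out, singly, knockout liver 1, 2, 4 or 5 or wild-type liver 2, 3, 4 or 5 (adjusted p from 0.0562 to 0.0702). The other Atg3 probe set was dim, with a mean of 10.7 in knockout and 13.2 in wild-type livers. Averaged over both Atg3 probe sets, with equal weight, the difference was 0.02 (adjusted p = 0.859).

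Other conjugation genes were near or past the threshold in some probe sets. Atg16l1 was at 0.20 with an adjusted p of 0.0512. Atg7 was at 0.08 and Atg4b, a protease that trims LC3, at 0.07, and neither passed. For Atg12 the brightest probe set was at 0.15 (adjusted p = 0.176, and past the threshold only without knockout replicate 6, at 0.0389). Another Atg12 probe set rose 1.25-fold, with 200.2 ± 12.9 in knockout and 157 ± 19.1 in wild-type livers (SD, n = 6 each, adjusted p = 0.0119, limma).

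For Atg5, of the same complex, the brightest probe set was at -0.01 (adjusted p = 0.894). By that measure neither Atg12 nor Atg5 passed. A dimmer Atg5 probe set fell 1.16-fold, with 342 ± 14.2 in knockout and 399 ± 33.8 in wild-type livers (SD, n = 6 each, adjusted p = 0.0305, limma). Leaving out, singly, knockout liver 1, 2, 4 or 6 or wild-type liver 2, 5 or 6 ended the call (adjusted p from 0.0502 to 0.0654).

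The LC3 and GABARAP proteins coat the autophagosome and bind its cargo receptors. Of the 5 genes measured, Gabarapl2 rose, against 6.46% of all genes, and the other 4 did not pass by their brightest probe set. Gabarapl2 had intensities of 738, 749 and 829 (lowest, median and highest) in knockout livers and 590.3, 692 and 709 in wild-type livers, so that the groups did not overlap. The rise was 1.14-fold (log2 difference 0.19, SE 0.0558, adjusted p = 0.0394, limma). Median centring ended the call (adjusted p = 0.0543), as did leaving out any single knockout liver, or wild-type liver 3, 4 or 6 (adjusted p from 0.0525 to 0.0840).

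Gabarap was the steadiest of the 49 brighter genes, with a log2 SD of 0.0271 among knockout and 0.0315 among wild-type livers. It ran from 2401 to 2531 in knockout and from 2354 to 2501 in wild-type livers, a log2 difference of 0.02 (SE 0.0368). Gabarapl1 was at -0.07 and Map1lc3a, which encodes an LC3 protein, at -0.07. Neither passed, with adjusted p of 0.544 and 0.381.

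Map1lc3b, the LC3 gene most often followed as a marker of autophagosomes, has 4 probe sets. The brightest ran from 1861 to 2108 in knockout and from 1858 to 2186 in wild-type livers and was at -0.04 (adjusted p = 0.663). Another of nearly the same brightness fell 1.21-fold, with 1564 to 1813 in knockout and 1839.9 to 2136 in wild-type livers, without overlap (log2 difference -0.27, SE 0.0520, adjusted p = 0.00585, limma). All 4 probe sets had a negative difference, and 1 of them passed.

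Sqstm1 encodes p62, a cargo receptor that is itself consumed by autophagy and that stress pathways can induce. It ran from 2616 to 3337 with a median of 2814 in knockout livers and from 2216 to 3070.4 with a median of 2550.4 in wild-type livers. All 6 knockout livers stood above the wild-type median, yet the groups overlapped and the difference of 0.17 (SE 0.0833) did not pass (adjusted p = 0.220).

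Tfeb encodes a transcription factor that binds E-box sequences in the promoters of lysosome and autophagy genes. It read 169, 189 and 212 (lowest, median and highest) in knockout livers and 144, 158 and 172 in wild-type livers. The knockout livers stood above every wild-type liver in 4 of 6 cases. Tfeb rose 1.17-fold (log2 difference 0.23, SE 0.0645, adjusted p = 0.0378, limma). Quantile normalization (adjusted p = 0.104) and median centring (0.0843) each ended the call. It also ended when knockout liver 1, 3 or 5 or wild-type liver 2, 3, 5 or 6 was left out singly (adjusted p from 0.0658 to 0.0788).

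Promoter windows of 250 bases before to 50 after the transcript start were taken from RefSeq (GRCm38.p6) for the 48 of 61 genes that have one. The E-box CACGTG, which reads the same on both strands, was in the window of 13 of the 48 genes (27.1%), against 10.7% of the 9839 other array genes with a window. The longer TCACGTGA, which contains it, was in 6 of the 48 (12.5%), against 1.71% of those other genes. With a G before and a C after it, as in the CLEAR consensus described for TFEB, it was in 0 of the 48, against 0.559%. A match is a description of these letters and not a binding site. The stretches below are shown because they belong to genes that passed in some probe set, or to Lamp1 with its 4 copies, and capitals mark CACGTG. Each runs 5′ to 3′ on the strand of the gene and ends at or just past the transcript start, or 20 bases after the last copy.
Atg14, chr14:47568430-47568455, minus strand: cctggataaaaacaaaatccCACGTG
Atg3, chr16:45158715-45158783, plus strand: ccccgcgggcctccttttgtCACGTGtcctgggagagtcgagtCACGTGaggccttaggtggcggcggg
Atg5, chr10:44268305-44268338, plus strand: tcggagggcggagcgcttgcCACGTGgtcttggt
Atp6v0d1, chr8:105566061-105566087, minus strand: gagccaggccctactgcggtCACGTGa
Atp6v0b, chr4:117887330-117887385, minus strand: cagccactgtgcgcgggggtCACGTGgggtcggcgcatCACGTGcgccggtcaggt
Atp6v1a, chr16:44139365-44139410, minus strand: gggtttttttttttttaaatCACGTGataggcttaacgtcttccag
Ctsf, chr19:4855066-4855111, plus strand: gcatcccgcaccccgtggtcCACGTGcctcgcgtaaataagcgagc
Lamp1, chr8:13159080-13159160, plus strand: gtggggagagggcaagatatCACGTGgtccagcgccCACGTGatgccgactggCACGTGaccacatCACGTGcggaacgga

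The genes with an E-box in these windows did not move one way. By their brightest probe sets, 1 of the 13 rose (Atg3) and 3 fell (Atg14, Atp6v0d1 and Ctsf), with a median log2 difference of -0.03. Of the 35 genes with a window and no E-box, 3 rose and 2 fell, with a median of 0.02. Over all genes on the array 6.46% rose and 5.24% fell. Lamp1, with 4 copies of the E-box shown above, was at -0.04 and did not pass.

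The V-ATPase has a soluble part, V1, which hydrolyses ATP, and a membrane part, V0, through which protons pass. Of its 12 V1 genes 1 rose and 0 fell, with a median log2 difference of 0.00. Of its 7 V0 genes 1 fell and 0 rose, with a median of -0.18, and 6 of the 7 had a negative difference. These values are of the brightest probe sets, and 2 of the 7 genes were dim. The median is the value of Atp6v0a1, described below, whose probe sets gave opposite signs and averaged 0.16. In each part 1 gene passed, which is 8.33% of the V1 and 14.3% of the V0 genes, against 11.7% of all genes.

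Atp6v1c1, the C subunit that joins V1 to V0, rose 1.18-fold. It read 807, 841 and 860.1 (lowest, median and highest) in knockout livers and 624, 717 and 760.2 in wild-type livers, without overlap (log2 difference 0.24, SE 0.0529, adjusted p = 0.0113, limma). Its other 2 probe sets were at 0.01 and 0.13 and did not pass, and the average of all 3 was at 0.13 (adjusted p = 0.0507). Atp6v1a, the catalytic A subunit, was at 0.12 by its brightest probe set (adjusted p = 0.381), while its other probe set fell 1.18-fold, with 452 ± 38.4 in knockout and 534 ± 40.4 in wild-type livers (SD, n = 6 each, adjusted p = 0.0385). Leaving out, singly, knockout liver 1, 2 or 3 or wild-type liver 2, 4, 5 or 6 ended the call of that fall (adjusted p from 0.0654 to 0.0806). Atp6v1e1, a subunit of the peripheral stalk and the brightest V1 probe set, was at 0.03 and did not pass.

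Atp6v0d1, the d subunit at the central stalk, fell 1.14-fold. Its values were 830.2, 896 and 957 in knockout livers and 957, 1025 and 1067 in wild-type livers (lowest, median and highest), with 5 of 6 knockout livers below every wild-type liver. The log2 difference was -0.19 (SE 0.0467, adjusted p = 0.0225, limma). The adjusted p was 0.0501 without wild-type replicate 5 and 0.0506 without wild-type replicate 6.

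Atp6v0a1, the a subunit that forms the proton path and anchors the pump in its compartment, gave opposite signs by probe set. The brightest was at -0.18 (adjusted p = 0.0727, and past the threshold after quantile normalization, at 0.0473, or among probe sets with a mean of at least 50, at 0.0389). The other 3 were at 0.15, 0.30 and 0.38, and the average of all 4 was at 0.16 and passed (adjusted p = 0.0254). The last of these rose 1.31-fold, with values of 68.0 to 76.6 in knockout livers and of 42.7 to 61.3 in wild-type livers, without overlap (adjusted p = 0.00445, limma). The authors' deposited table lists that probe set with a fold of 1.39, with bounds of 1.2 and 1.63. For Atp6v0b the brightest probe set was at -0.03, and a dimmer one, whose _x_at ending marks probes that can match unrelated transcripts, fell 1.16-fold (adjusted p = 0.0188).

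**Figure D3:**
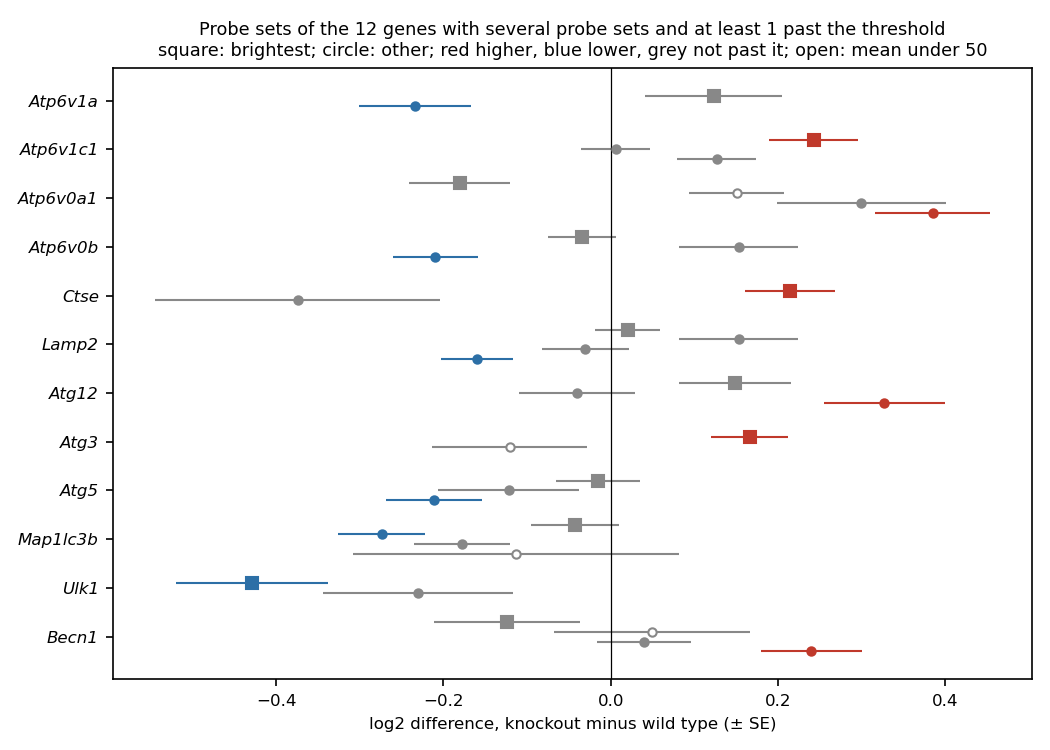
Log2 difference, knockout minus wild type, with its standard error as the bar, for every probe set of the 12 genes that have several probe sets and at least 1 past the threshold. Squares are the brightest probe sets, and for Atp6v1a, Atp6v0a1, Atp6v0b, Ctse, Lamp2, Atg12, Atg3 and Becn1 the probe sets of a gene lie on both sides of 0.

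Of the 61 genes, 23 have several probe sets. In 14 of these the probe sets lay on both sides of 0. That count includes dim probe sets and differences close to 0. For Atg3 and Atp6v1e1 only a dim probe set lay below 0, and the lowest Ctsb difference was -0.009. In 12 of the 23 at least 1 probe set passed, in 0 did every one pass, and in 8 the brightest was not among those that passed. In 0 genes did probe sets pass in opposite directions. Counted by probe set, 9 of the 105 rose, against 6.82% of all probe sets, and 10 fell, against 5.15%. Among genes with a single probe set 7 of 38 passed, against 11.7% of all genes by their brightest probe set. The sources used here do not say where in each transcript the probes lie, and the beta-actin ratio of 5′ to 3′ signal differed by 0.39 between the same groups. Its part in these disagreements was not tested.

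Among the 17 cathepsins 2 rose and 1 fell, against 6.46% and 5.24% of all genes. Ctsb, a cysteine protease and the brightest cysteine cathepsin probe set, ran from 4114 to 4535 in knockout and from 4113 to 4617 in wild-type livers. Its difference was -0.01 (SE 0.0448, adjusted p = 0.931), although another Ctsb probe set stood at 3120.1 ± 85.2 in knockout and 2853 ± 121 in wild-type livers without overlap (SD, n = 6 each, log2 difference 0.13, adjusted p = 0.0693). Ctsl, Ctsh and Ctsd, which encode further major lysosomal proteases, were at 0.07, 0.03 and -0.12 and did not pass. Ctsa, a serine carboxypeptidase that also protects other lysosomal enzymes, was at -0.22 with all 6 knockout livers below the wild-type median, and did not pass (adjusted p = 0.104). It read 807 and 784 in wild-type replicates 2 and 5, 590 to 672 in the other wild-type livers, and 523 to 642 in knockout livers. The median absolute difference was 0.06 over the 13 cysteine cathepsins and 0.17 over the 4 aspartic and serine ones, against 0.10 over all genes. Ctsj, Ctsm, Ctsq and Ctsr, known from rodent placenta, were all dim.

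Of the 13 cysteine cathepsins Ctsk rose and Ctsf fell. Ctsf read 47.9, 52.6 and 59.9 in knockout and 59.1, 67.0 and 73.8 in wild-type livers (lowest, median and highest), with 5 of 6 knockout livers below every wild-type liver. It fell 1.19-fold (log2 difference -0.26, SE 0.0600, adjusted p = 0.0160, limma).

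Ctsk, a collagen-degrading protease best known from bone, was dim, with 29.9, 38.6 and 45.3 in knockout and 23.9, 25.2 and 33.2 in wild-type livers. It rose 1.25-fold on the log2(intensity + 16) scale, which understates the fold of dim genes (log2 difference 0.32, SE 0.0752, adjusted p = 0.0163, limma). Among markers of stellate cells and fibroblasts 4 of 10 rose, against 6.46% of all genes, and 0 fell. Their summed intensity ran from 3488 to 4160 in knockout and from 2952 to 3669 in wild-type livers. The part of those cells in the Ctsk result was not tested.

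Ctse, an aspartic protease of endosomes, rose 1.16-fold. It ran from 2811 to 3289 with a median of 2991 in knockout livers and from 2413 to 2810.4 with a median of 2581 in wild-type livers, without overlap, although the lowest knockout and the highest wild-type value nearly met. The log2 difference was 0.21 (SE 0.0541, adjusted p = 0.0226, limma). Median centring left it just short of the threshold (adjusted p = 0.05002), and the other Ctse probe set was at -0.37 and did not pass (adjusted p = 0.184). The average of both was at -0.08, the opposite sign, and did not pass (adjusted p = 0.632).

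Ctss, Ctsc and Ctsz, named here after their values were seen, had the widest spread among wild-type livers of the 49 brighter genes. Ctss encodes cathepsin S, which trims the invariant chain in antigen-presenting cells. Its log2 SD was 0.246 among knockout and 0.616 among wild-type livers. It read 1497, 1107, 1069, 1159.9, 1206 and 1633 in knockout replicates 1 to 6. In wild-type replicates 1 to 6 it read 607, 1671, 629, 664, 1325 and 725.

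The wild-type livers thus held a high pair, replicates 2 and 5, and 4 low ones, and every knockout liver lay between the low wild-type values and the highest. The Ctss difference of 0.54 (SE 0.242) was the largest of the 61 genes and did not pass (adjusted p = 0.174). Without wild-type replicate 2 it was 0.73 (adjusted p = 0.0311), and without replicates 2 and 5 together 0.93 (adjusted p = 0.00306). Ctsc, which encodes dipeptidyl peptidase I, and Ctsz also had their 2 highest values in wild-type replicates 2 and 5, at 1569 and 1364 for Ctsc and at 2014 and 1982 for Ctsz. Their differences were 0.04 and 0.05, and neither passed.

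The macrophage markers moved in the same livers. Their sum was 10157 and 9594 in wild-type replicates 2 and 5, and Clec4f, a defining marker of Kupffer cells, the resident macrophages of the liver, read 999 and 1002 there against 465 to 526 in the other wild-type livers and 403 to 568 in knockout livers. Clec4f was at -0.30 between the genotypes, unlike most of its list. Of the 15 markers 12 had a positive difference and 3 a negative one, with a median of 0.25. The marker sum ran from 5708 to 7817 in knockout livers, above the 4199 to 5235 of the other wild-type livers. Of the 15 markers limma called 0 between the genotypes, 1 had an unadjusted p under 0.05, and 0 were below an intensity of 50. The part of macrophages in the cathepsin values was not tested. Leaving out wild-type replicates 2 and 5 together, a setting chosen after seeing the data, left 4 of the 61 genes higher and 4 lower. Of these 8, 7 were among the 11 that passed with all livers. Over the whole array 2708 probe sets passed with all livers and 2044 in that setting. Atg3, Atp6v0d1, Ctse and Tfeb lost their calls there (adjusted p of 0.119, 0.0761, 0.0524 and 0.122), and Ctss gained one.

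**Figure D4:**
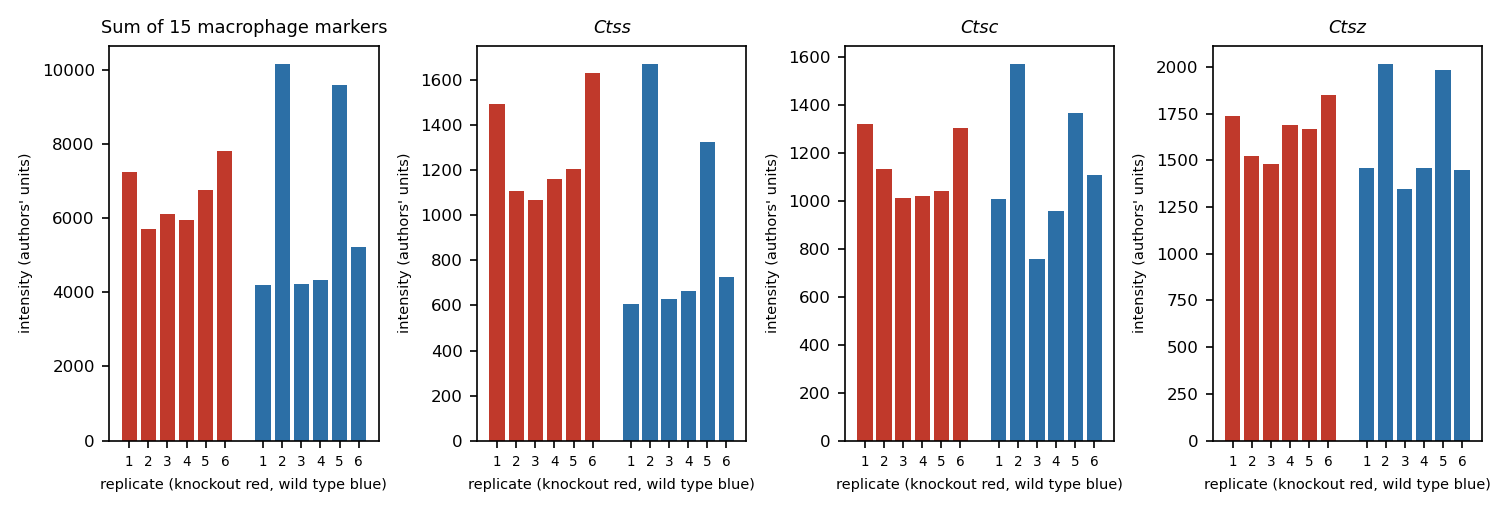
Intensity in the authors' units by liver (horizontal axis, replicate 1 to 6 of knockout in red and of wild type in blue) of the sum of 15 macrophage markers and of Ctss, Ctsc and Ctsz. Wild-type replicates 2 and 5 are the tallest bars among the wild-type livers in all 4 panels, with marker sums of 10157 and 9594.

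Lamp1 and Lamp2 encode the heavily glycosylated proteins that line the lysosomal membrane. Lamp1 ran from 3324 to 3785 in knockout and from 3596 to 3847 in wild-type livers, and its difference of -0.04 (SE 0.0435) did not pass. Lamp2 was at 0.02 by its brightest probe set, with 3299.7 ± 88.5 in knockout and 3253 ± 89.6 in wild-type livers (SD, n = 6 each). Of its other 3 probe sets 1 fell 1.12-fold (adjusted p = 0.0296, limma) and the others were at 0.15 and -0.03. Leaving out, singly, knockout liver 2, 3, 4, 5 or 6 or wild-type liver 4, 5 or 6 ended that call (adjusted p from 0.0507 to 0.0641).

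Other genes of the pathway were taken from 5 lists with 148 genes, of which 120 were measured. Of the 120, 5 rose and 15 fell, or 16.7% against 11.7% of all genes, and the median log2 difference was -0.01. The count that rose was 3 without knockout replicate 1, 2, 3, 4 or 5, or wild-type replicate 3, 4 or 6, and the count that fell was 7 without wild-type replicates 2 and 5 together. Adjusted for the beta-actin ratio, limma called 0 of the 120, and 8 had an unadjusted p under 0.05. Of the 14 called genes named below, 5 had a difference at least as large in that fit, such as Gm2a at -0.40 and Stx17 at 0.34, and 9 a smaller one of the same sign, such as Ppara at -0.43 and Laptm4a at 0.17. Their standard errors were 0.0919 to 0.246, against 0.0411 to 0.111 without the adjustment.

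Of 33 lysosomal hydrolases and their activators 6 fell, against 5.24% of all genes, and 0 rose. A negative difference was found in 24 of the 33, with a median of -0.06, and in 5674 of all 12393 genes. Gm2a, the activator protein for GM2 ganglioside breakdown, ran from 485 to 601 in knockout and from 625 to 789 in wild-type livers, without overlap, and fell 1.27-fold (adjusted p = 0.00724, limma), but the average of its probe sets did not pass (-0.23, adjusted p = 0.0685). Smpd1, acid sphingomyelinase, read 284 ± 13.0 in knockout and 326 ± 5.46 in wild-type livers and fell 1.14-fold (SD, n = 6 each, adjusted p = 0.0112). Gaa, the acid glucosidase that degrades glycogen in lysosomes, read 574 ± 45.1 in knockout and 678 ± 26.0 in wild-type livers and fell 1.18-fold (SD, n = 6 each, adjusted p = 0.0150). Its call was lost without wild-type replicates 2 and 5 together (adjusted p = 0.0583).

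Among 15 other lysosomal membrane proteins 2 rose and 1 fell, against 6.46% and 5.24% of all genes. Laptm4a, a membrane protein of late endosomes and lysosomes, ran from 2152 to 2470.5 in knockout and from 1319 to 1982 in wild-type livers and rose 1.37-fold, without overlap (adjusted p = 0.00571, limma). Npc1, which exports cholesterol from lysosomes, fell 1.16-fold, with 591 ± 32.4 in knockout and 687 ± 36.8 in wild-type livers (SD, n = 6 each, adjusted p = 0.0184). Tmem192 rose 1.12-fold (adjusted p = 0.0472), and lost its call after quantile normalization (0.0891), median centring (0.118) and under a trended variance (0.0577). Leaving out any single knockout liver, or wild-type liver 3, 4, 5 or 6, ended it too (adjusted p from 0.0566 to 0.0981).

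In the list of sorting factors and protease inhibitors 1 of 21 rose and 1 fell, or 9.52% against 11.7% of all genes. Sumf1, which activates sulfatases before they reach the lysosome, fell 1.21-fold, with 327 ± 29.7 in knockout and 399 ± 17.9 in wild-type livers (SD, n = 6 each, adjusted p = 0.0125). That call was lost without wild-type replicates 2 and 5 (adjusted p = 0.0532) and with its probe sets averaged (0.0533). Vps26a, of the retromer coat that recycles sorting receptors, rose 1.13-fold (adjusted p = 0.0347), and median centring ended its call (adjusted p = 0.0575). So did leaving out, singly, knockout liver 1, 2, 3, 4 or 5 or wild-type liver 3, 4 or 6 (adjusted p from 0.0543 to 0.0731).

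Among 26 other genes of the autophagy machinery 3 fell and 1 rose, or 15.4% against 11.7% of all genes. Nbr1, a cargo receptor related to p62, ran from 1291 to 1426 in knockout and from 1472 to 1604 in wild-type livers and fell 1.13-fold, without overlap (adjusted p = 0.0165, limma). Stx17, a syntaxin that fuses autophagosomes with lysosomes, averaged 309 in knockout and 254 in wild-type livers and rose 1.20-fold (log2 difference 0.27, adjusted p = 0.0206). Without wild-type replicates 2 and 5 neither kept its call (adjusted p of 0.0604 for Nbr1 and 0.0579 for Stx17), nor did either with its probe sets averaged (0.793 and 0.142). Vps39, of the tethering complex for that fusion, fell 1.13-fold (adjusted p = 0.0395). Its call was lost under the trended variance model (adjusted p = 0.0761), without any single wild-type liver, and without knockout liver 3, 4, 5 or 6 (adjusted p from 0.0516 to 0.0792).

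Among 26 genes that control autophagy and lysosome genes 4 fell and 1 rose, or 19.2% against 11.7% of all genes. Foxo3, a transcription factor that raises autophagy genes and is restrained by insulin signalling, ran from 188 to 254 in knockout and from 278 to 468 in wild-type livers and fell 1.60-fold (log2 difference -0.68, SE 0.111, adjusted p = 0.00289, limma). Tsc1, which restrains the growth kinase mTORC1, read 91.2 ± 12.6 in knockout and 130.2 ± 14.2 in wild-type livers and fell 1.37-fold (SD, n = 6 each, adjusted p = 0.00659), but the average of its probe sets did not pass (-0.22, adjusted p = 0.194). Ppara fell 1.35-fold, with 1601 ± 165 in knockout and 2173 ± 214 in wild-type livers (SD, n = 6 each, adjusted p = 0.00449). None of these 3, named for the smallest p of the list, overlapped between the groups. Of the 26 genes, 2 were higher without overlap and 4 lower, against 3.68% and 3.12% of all genes.

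**Figure D5:**
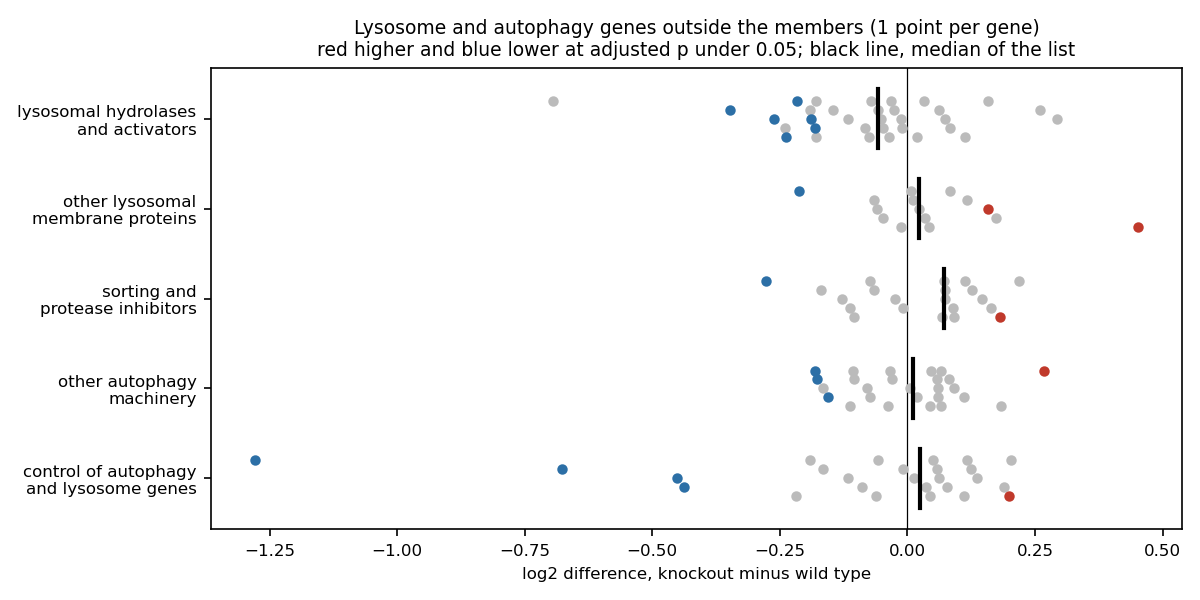
Log2 difference, knockout minus wild type, of each gene in the 5 lists of lysosome and autophagy genes outside the V-ATPase, cathepsin, Lamp and Atg families, with the median of each list as a black line. The hydrolases hold 6 blue and 0 red points, and the points farthest to the left are Ppargc1a at -1.28, Galns at -0.69 and Foxo3 at -0.68, of which Galns did not pass.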

How the data were processed

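The 12 samples were grouped by the genotype in their titles. Per the labels' protocols, 8 ug of total liver RNA per array was labelled as biotinylated cRNA. The deposited intensity of each probe set is linear; the sources used here do not name the program that summarised and scaled it. From the authors' deposited table of 727 selected probe sets, which holds 2 of the probe sets described, the signed fold and its bounds (score columns) and the p-value were read, and 24 columns per sample were not used.

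After leaving out 64 control probe sets, 22626 were tested two-sided with limma 3.58.1 (R 4.3.3; lmFit, eBayes) on log2(intensity + 16), with Benjamini-Hochberg adjustment over all of them. A fold is the log2 difference turned back to a linear scale. Of these probe sets 20380 had 1 gene symbol in the platform annotation, 691 several and 1555 none, and only those with 1 were named. The test was first tested on simulated data. Coordinates and promoters are RefSeq's (GRCm38.p6). Each array came from a separate liver.

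Genes were named where a probe set of the described families passed, or by family or brightness (26 genes), with Pctp, Ppara and up to 3 genes per pathway list with the smallest p past the threshold. Atg4b, Atg7, Atg13, Atg16l1, Ctsa, Ctsc, Ctsd, Ctsh, Ctsj, Ctsl, Ctsm, Ctsq, Ctsr, Ctss, Ctsz, Clec4f, Galns and Ppargc1a were named after their values were seen. All genes and lists were chosen with earlier results of these data known. Alternatives were added constants of 1 and 64, a minimum mean of 50, quantile normalization, centring on array medians, trended and robust variance, no moderation, array weights, a replicate block, a threshold of 0.01, averaging probe sets per gene, and leaving out each array. A fit adjusted for the beta-actin ratio and one lacking wild-type replicates 2 and 5 were chosen after seeing the data, as were the averaged values of single genes.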

Additional observations from a re-analysis of the deposited data

Results flagged for a closer look

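Among 104 sets of 6 livers examined for the named probe sets, 1 held a liver far from the other 5 of its group by Dixon's criterion, which chance meets in about 1 of 20. Gabarapl1, a GABARAP-family gene, read 3322 in wild-type replicate 3, while the other 5 wild-type livers lay between 2666.5 and 2909. The gap was 0.63 of the whole range. Its knockout values ran from 2564 to 3051, and its difference of -0.07 did not pass with all livers.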

How the results depend on the processing

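Of the 61 genes, 6 rose and 5 fell. Those counts became 2 rising after median centring (7 of its 8 calls were among the original 11), 2 rising with the replicate block, 0 rising and 2 falling at a threshold of 0.01, and 0 and 0 in limma adjusted for the beta-actin ratio. Averaging probe sets per gene gave 5 and 5. In the adjusted fit Gabarapl2 reversed to -0.0274, while 7 of the 25 called genes named had a difference at least as large as reported, and 2 of all probe sets passed, against 2708 as reported, with 1501 against 5949 at an unadjusted p under 0.05. Leaving out 1 array gave 3 to 6 rising (3 without knockout replicate 1 or 5 or wild-type replicate 3) and 4 to 5 falling. For the pathway genes outside these families, 5 rose and 15 fell. They became 8 rising among probe sets with a mean of at least 50, 3 rising after median centring, 1 rising and 8 falling with the replicate block, 0 and 0 adjusted for that ratio, 7 falling without wild-type replicates 2 and 5, and 3 to 5 rising and 10 to 14 falling without 1 array. The calls over all probe sets ran from 2006 to 2742 without 1 array, and were 1906 with the block. The share of calls that were higher was 57.0% on the deposited scale, 49.2% with quantile-normalized arrays and 44.0% with centred ones. Same-numbered livers deviated together by correlations from -0.0780 to 0.0780 and 0 of 6 knockout livers correlated best with their own number. Over all probe sets these values showed no pairing by number. Whether the numbers mark a shared batch was not tested. With the block, calls of Atg3, Gabarapl2, Tfeb, Ctse, Atp6v0d1, single probe sets of 4 other member genes, and Gaa, Nbr1, Smpd1, Stx17, Tmem192, Vps26a and Vps39 were not kept. Over the planned settings for single probe sets, 103 values lost a call, 4 gained one, 984 kept their side and 0 turned round. With probe sets averaged, chosen for single genes after seeing the data, Ctse turned to -0.0799 and Atp6v0a1 to 0.16, and 8 of the genes named lost a call. Such an average gives a dim probe set the same weight as a bright one. The number of arrays limits what can be detected. The cause of these shifts was not tested.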
